A study of Mus musculus with 18 samples.

Results

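The regions described here are the peaks of open chromatin over transfer RNA (tRNA) genes of mouse embryonic stem cells. They are the peaks on autosomes that overlapped, by at least 1 bp, a gene of biotype tRNA in the RefSeq annotation of GRCm38 extended by 100 bp on both sides. There were 213 such peaks among 160099 autosomal peaks and 166066 peaks in all, a share of 0.133% of the autosomal peaks, and they lay over 295 of the 386 autosomal tRNA genes. The 213 peaks are called tRNA peaks below.

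The peaks came from ATAC-seq, in which a transposase cuts and tags open DNA, of the stem cell line dTKO. The labels give its genotype as Suv39h1fl/fl, Suv39h2-/- and Setdb1fl/fl, 3 genes of histone H3 lysine 9 methyltransferases. Cells grew in LIF/FCS medium, to which dTAG13 (0.5 µM) and auxin (100 µg/ml) were added. The 18 libraries stand for 6 times, 0 h as the baseline and then 3, 6, 12, 24 and 48 h, each with 3 repeats that the series describes as biological. All groups share the line and the genotype. Both agents are given for all groups, but 0 h is the baseline, so exposure to them is not taken as equal between the times. The labels do not say which protein is tagged, and removal of the enzymes was not checked here. The peak list is merged over all libraries and carries no height, count or library, so sequencing depth is unknown, no value has an error between replicates, and whether a tRNA peak opened or closed after 0 h was not analysed here. Intervals below are 95% Wilson intervals over genes or peaks. They cover counting error only, and neighbouring genes that share a peak are not independent. All 8 marker genes of embryonic stem cells that were looked up, Pou5f1 and Nanog among them, had a peak within 500 bp of an annotated end. So did 4 of 8 fibroblast marker genes, Col1a1, Col1a2, Dcn and Thy1. Over all protein-coding genes 71.4% had one.

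Transfer RNAs carry amino acids to the ribosome and read codons with a base triplet, the anticodon. Their genes are short and are transcribed by RNA polymerase III from a promoter inside the gene: the factor TFIIIC binds the A box and B box, TFIIIB is placed upstream, and the polymerase stops at a run of T after the gene. Vertebrate genomes hold many copies per anticodon, often in clusters, and not all copies are transcribed in a given cell type. In the symbols used here, such as n-TAagc16, the letter after T is the amino acid and the next letters are the anticodon.

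The sequences below come from 5 tRNA genes under peaks. They could be read only because they lie near a neighbouring gene's start, and they do not stand for all tRNA peaks. Of the 386 autosomal tRNA genes, 8 fell at least in part within the 250 bases that RefSeq lists before a neighbouring gene's start (GRCm38.p6), and the 5 read far enough to include the anticodon are printed. They are written 5′ to 3′ in the sense of the tRNA gene, which was taken from the strand that matched the B box consensus, with up to 40 bases after the gene. Capitals mark, in this order, a match to the A box consensus, the anticodon, the match to the B box consensus and the first run of 4 T after the gene, where each was found.
n-TRtcg5: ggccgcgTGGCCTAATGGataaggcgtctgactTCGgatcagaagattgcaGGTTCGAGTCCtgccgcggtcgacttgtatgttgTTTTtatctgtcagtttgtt
n-TAagc16: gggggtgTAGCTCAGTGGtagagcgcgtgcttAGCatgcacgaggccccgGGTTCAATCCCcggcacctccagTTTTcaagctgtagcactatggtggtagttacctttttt
n-TVcac9: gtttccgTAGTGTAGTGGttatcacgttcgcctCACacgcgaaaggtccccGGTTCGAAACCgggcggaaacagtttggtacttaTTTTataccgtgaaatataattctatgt
n-TLaag4: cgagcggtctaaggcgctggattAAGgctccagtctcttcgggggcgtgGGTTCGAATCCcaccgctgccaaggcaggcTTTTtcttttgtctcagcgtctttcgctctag
n-THgtg7: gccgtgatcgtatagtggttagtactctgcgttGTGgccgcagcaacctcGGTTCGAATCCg

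The Arg-TCG gene n-TRtcg5 (chr7:79466419-79466523 as printed, plus strand) lay before a start of Polg, the mitochondrial DNA polymerase gene. It also lay inside the annotated span of Polg, 1420 bp from the nearest end. The Ala-AGC gene n-TAagc16 (chr13:21222586-21222697, plus strand) and the Val-CAC gene n-TVcac9 (chr13:23446102-23446214, minus strand) lay before the long noncoding genes Gm32420 and Gm46404. The Leu-AAG gene n-TLaag4 (chr7:120917528-120917638, plus strand) lay before Polr3e, which encodes a subunit of RNA polymerase III itself, and the window held only the last 71 of its 82 bases, so no A box could be read. The His-GTG gene n-THgtg7 (chr3:96452495-96452556, plus strand) lay before a start of BC107364, inside that gene's annotated span and 1795 bp from its nearest end. The window held the first 62 of the 72 bases of n-THgtg7, and the A box consensus was not matched in them. In each of the 5 the triplet at the anticodon place was the one its symbol names. Searched on both strands, the B box consensus was present in 0.379% of 31396 autosomal windows of 300 bases (250 before a gene start and 50 after) and the A box consensus in 22.1%, and 0.108% held both. A match is a description of letters and not a site of factor binding.

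Each of these genes lay under a peak, and the peaks differed in size. The peak over n-TRtcg5 was 2296 bp wide, that over n-TLaag4 1517 bp and that over n-TVcac9 1564 bp, and the last also held a second gene, n-TRacg5. The peak over n-TAagc16 was 857 bp wide and that over n-THgtg7 360 bp. The peak of n-TLaag4 also covered the annotated start of Polr3e, so a tRNA gene and a protein-coding promoter share it and their parts cannot be told apart.

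A peak lay at 295 of the 386 autosomal tRNA genes (76.4%, interval 71.9 to 80.4). With the same window of 100 bp, other autosomal genes of at most 150 bp had a peak in 15.2% of 3861 cases. The share was 24.3% of 1136 miRNA genes, 12.5% of 1276 snoRNA genes and 8.87% of 924 snRNA genes. The share of rRNA genes was 85%, that is 51 of 60, a list made mostly of copies of the 5S gene, which RNA polymerase III also transcribes. The tRNA interval lay above those of the miRNA, snoRNA and snRNA genes, and it overlapped that of the rRNA genes (73.9 to 91.9). No test was made, since all these genes are read from 1 peak list.

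The extension by 100 bp mattered little. The gene itself was overlapped in 294 of the 295 cases, and the exception was n-TIaat13, 84 bp from its peak. Of the 295 genes, 275 lay wholly inside a peak (93.2%, 89.8 to 95.6). Just outside the limit were n-TMcat3 at 112 bp, n-TWcca1 at 115 bp, n-TEctc4 at 135 bp and n-TCgca24 at 140 bp.

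The genes without a peak were concentrated in 1 place. On chromosome 6, 48 Cys-GCA genes lie between 48133937 and 48363603, a stretch of 230 kb between the zinc finger gene Zfp746 and Krba1, and 0 of the 48 had a peak, which allows a share of up to 7.41% (upper Wilson bound). They make up 48 of the 57 autosomal Cys-GCA genes. Of the other 9, 7 had a peak: n-TCgca57, also on chromosome 6 but outside that stretch, n-TCgca18, n-TCgca51, n-TCgca54, n-TCgca55 and n-TCgca56 on chromosome 11, and n-TCgca52 on chromosome 17. The remaining 2, n-TCgca47 and n-TCgca53 on chromosome 9, lay 1418 and 1258 bp from a peak. Without the chromosome 6 block, 295 of 338 tRNA genes had a peak (87.3%, 83.3 to 90.4).

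**Figure D1:**
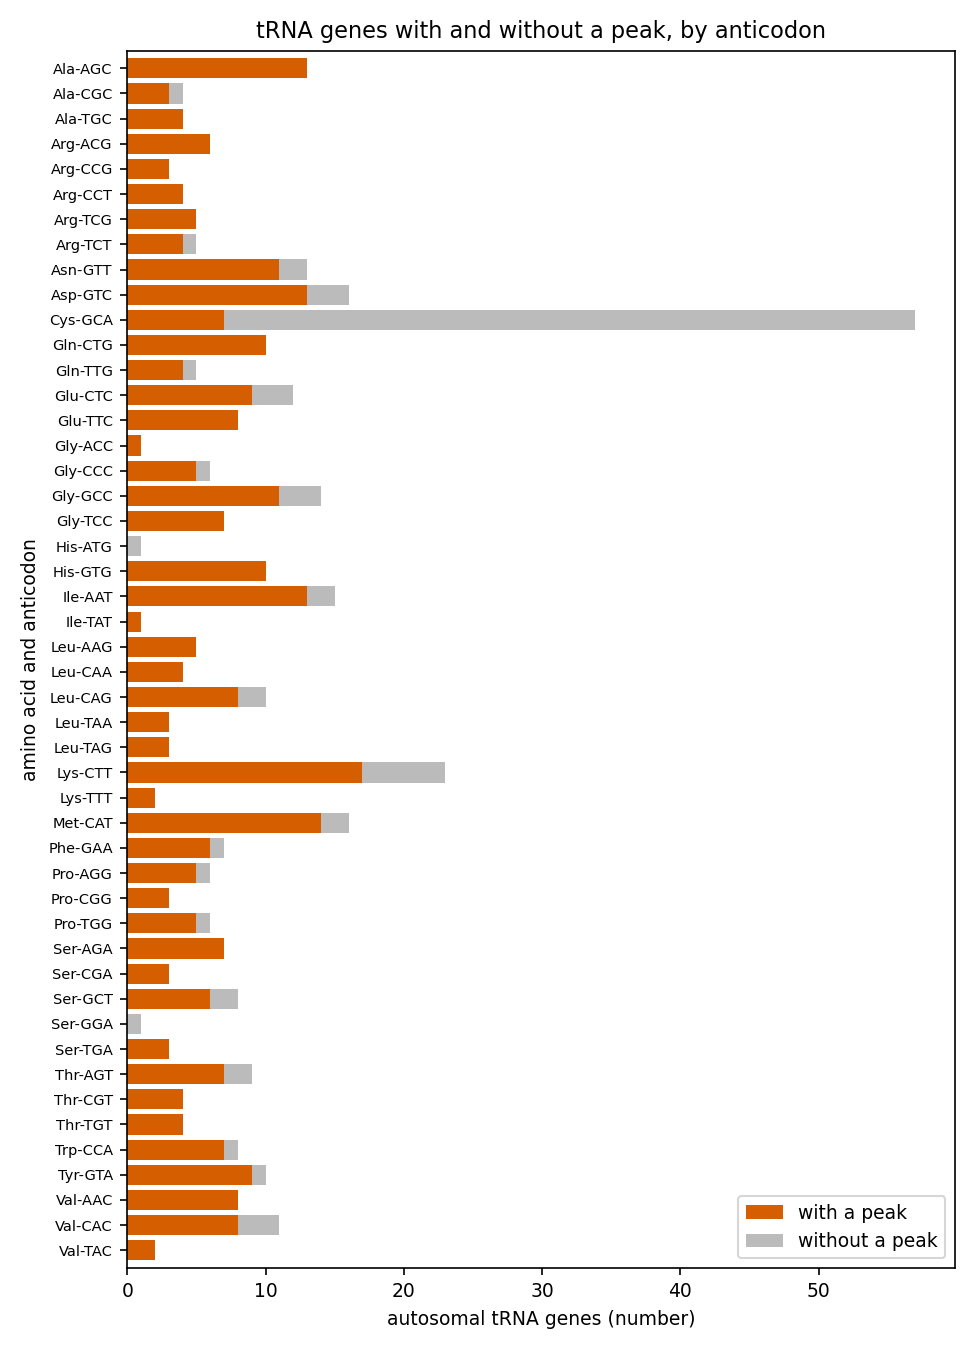
Number of autosomal tRNA genes with a peak (orange) and without one (grey) for each of 48 amino acid and anticodon names. The Cys-GCA bar, with 7 genes under a peak and 50 without, stands apart, while 25 names have a peak at every gene.

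The stretch around these Cys-GCA genes was not empty of peaks. It held 8 peaks of 207 to 1011 bp, or 34.8 per Mb, against 66.6 per Mb over the autosomes, and peaks covered 1.96% of it against 4.7% of the autosomes. The peak nearest to a gene of the block lay 140 bp from n-TCgca24, and the median distance from a gene to a peak was 9408 bp. The gene farthest from any peak in the block was n-TCgca19 at 30832 bp. A median of 3.5 peak midpoints lay within 50 kb of these genes, against 20 around tRNA genes with a peak. The latter count includes their own peaks and those over neighbouring tRNA genes. The genes of the block are repeated copies, and whether reads could be placed on them was not tested.

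A block of 25 tRNA genes on chromosome 1, also built of repeated units, had a peak at all 25. It runs from 171033942 to 171111515 near the Fc receptor gene Fcgr3, and its 77.6 kb held 23 peaks, 12 of them over tRNA genes, which together covered 27.4% of it. In its middle the same gene order recurs. The peaks over n-TEctc5 to n-TLcag6, n-TEctc8 to n-TLcag7 and n-TEctc7 to n-TLcag8 each held a Glu-CTC, a Gly-TCC, an Asp-GTC and a Leu-CAG gene and were 2241, 2176 and 2247 bp wide. Each was followed by a narrow peak over a Gly-GCC gene, of 279 bp at n-TGgcc12, 282 bp at n-TGgcc13 and 265 bp at n-TGgcc14. The repeated units thus carried peaks of nearly equal width, and how reads were shared between the copies was not tested. A further peak, of 1874 bp over n-TLcag9 to n-TEctc6, held the same 4 names in reverse order.

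**Figure D2:**
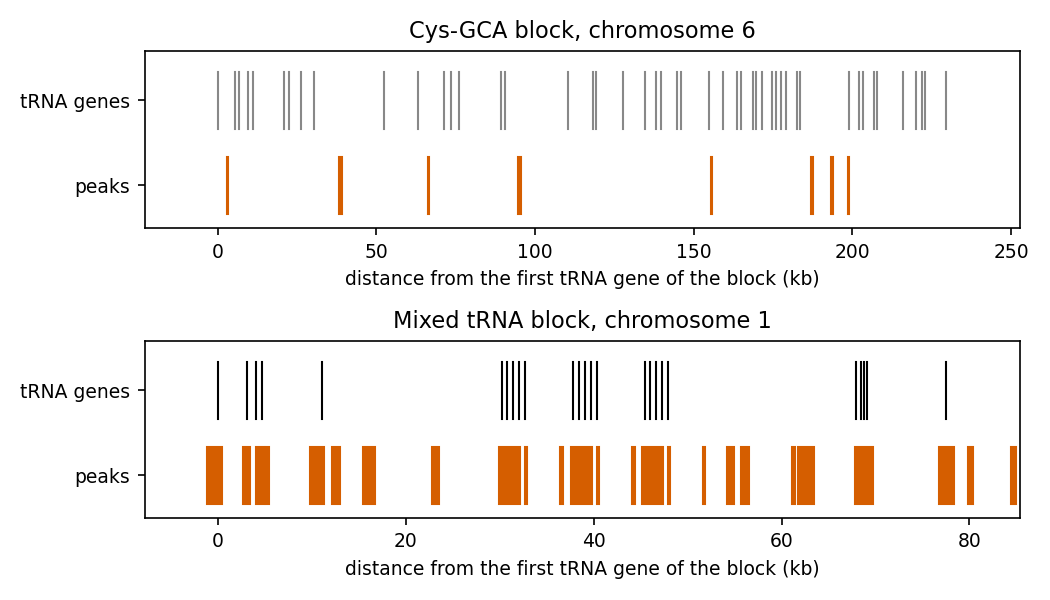
Positions of tRNA genes (upper ticks, black with a peak and grey without) and of all peaks (orange) in the Cys-GCA block of chromosome 6 and the mixed block of chromosome 1, in kb from the first tRNA gene of each. None of the 48 ticks meets a peak in the upper panel, and all 25 do in the lower one, whose horizontal scale differs.

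By anticodon, all but 2 names had at least 1 gene under a peak. Of 48 names, 25 had a peak at every gene, 21 at some and 2 at none. All 13 Ala-AGC genes, all 10 Gln-CTG genes and all 10 His-GTG genes had one. The 2 names with none have 1 gene each, n-THatg1 (His-ATG, chr1:171669439-171669511) and n-TSgga1 (Ser-GGA, chr11:100538158-100538230), whose nearest peaks lay 3102 and 2767 bp away. The other 2 names with 1 gene each both had a peak: n-TGacc1 (Gly-ACC), of 697 bp, and n-TItat14 (Ile-TAT), of 1184 bp. These names rest on symbols. The Ile-AAT genes n-TIaat15, n-TIaat16 and n-TIaat17 are 96, 95 and 93 bp long, near the 94 bp of n-TItat14, and their anticodons were not read from sequence. Other His genes and other Ser genes had peaks, so each of the 20 amino acids had at least 1 gene under a peak.

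Among the 19 amino acids other than Cys the share of genes with a peak ran from 76% for Lys to 95.7% for Arg. Lys-CTT, with 17 of 23 genes (73.9%, 53.5 to 87.5), and Val-CAC, with 8 of 11 (72.7%, 43.4 to 90.3), were the lowest of the names with 5 or more genes apart from Cys-GCA. Their intervals overlap those of Met-CAT, with 14 of 16 genes (87.5%, 64 to 96.5), and Asp-GTC, with 13 of 16 (81.2%, 57 to 93.4). With so few genes a name, these shares could not be told apart. Among genes of 85 bp or more, all named Tyr-GTA, Arg-TCT, Leu-CAA, Ile-AAT or Ile-TAT, 20 of 22 had a peak.

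The autosome with the most tRNA peaks was chromosome 13. Chromosome 13 held 105 of the 386 genes, of which 99 had a peak, and 74 of the 213 tRNA peaks (34.7%), against 4.51% of all autosomal peaks. The zinc finger gene Zfp184, Abt1 and Gpx5 were among the protein-coding genes nearest to tRNA peaks there. Of all tRNA peaks, 13 (6.1%, 3.6 to 10.2) had a histone gene as their nearest protein-coding gene. Among all tRNA genes, with or without a peak, it was 20 of 386 (5.18%, 3.38 to 7.87). The share among other autosomal peaks was not analysed here. Chromosome 1 had 34 of 37 genes under a peak, chromosome 3 had 37 of 40 and chromosome 11 had 43 of 47, whereas chromosome 6 had 4 of 53 and chromosome 15 had 1 of 4. Chromosome 18 had no tRNA gene in the annotation used.

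Genes were joined into clusters where the gap between neighbours was at most 10 kb, which gave 61 clusters with 286 genes and left 100 genes alone. Every gene had a peak in 50 of the clusters, some genes in 5, and none in 6, of which 5 belong to the Cys-GCA block. The sixth was n-TGgcc11 and n-TGgcc10 on chromosome 8, inside Vac14. In clusters 229 of 286 genes had a peak (80.1%, 75.1 to 84.3), against 66 of 100 lone genes (66%, 56.3 to 74.5), and without the Cys-GCA block 229 of 239 (95.8%, 92.5 to 97.7), against 66 of 99 (66.7%, 56.9 to 75.2). The intervals of clustered and lone genes did not overlap in either case, although they nearly met with the block kept in. Clustered genes that share a peak are not independent, so their intervals are too narrow. Position inside a cluster made little difference: outside the block, in clusters of 3 or more genes, 62 of 64 edge genes (96.9%, 89.3 to 99.1) and 121 of 127 inner genes (95.3%, 90.1 to 97.8) had a peak.

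The largest clusters show how peaks divide the genes. The largest, of 22 genes from n-TCgca32 to n-TCgca45, belongs to the Cys-GCA block and had no gene under a peak, as did that of 10 genes from n-TCgca24 to n-TCgca19. A cluster of the same size, from n-TAagc17 to n-TRtcg2 on chromosome 13, had 10 of 10 genes under 10 tRNA peaks. The 15 genes from n-TEctc5 to n-TGgcc14 on chromosome 1 shared 6 tRNA peaks. The 15 genes from n-TMcat2 to n-TSaga8 on chromosome 13 had 13 genes under 10 tRNA peaks, and n-TRtct3 and n-TDgtc13, at 1563 and 971 bp from a peak, were left out. The 14 genes from n-TYgta3 to n-TLcag10, also on chromosome 13, had 12 genes under 9 tRNA peaks, with n-TYgta6 and n-TPagg3 as the exceptions. Single genes without a peak thus stood inside clusters whose other members had one.

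Most tRNA peaks served 1 gene. Of the 213, 160 held 1 tRNA gene, 34 held 2, 10 held 3, 8 held 4 and 1 held 5, so 53 held more than 1 (24.9%, 19.6 to 31.1). The peak with 5 genes (chr19:12009383-12012550) held n-TKctt30, n-TLtaa4, n-TRtct1, n-TVtac1 and n-TVtac2 and was 3168 bp wide. No tRNA gene touched 2 peaks.

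The tRNA peaks were wide. Their median width was 1184 bp (95% order-statistic interval 1099 to 1319, quartiles 768 and 1678, range 234 to 3263), against 578 bp (576 to 581, quartiles 366 and 908) for the other 159886 autosomal peaks. At least 1000 bp were reached by 130 of 213 tRNA peaks (61%, 54.3 to 67.3), against 20.6% of other peaks, and 2000 bp by 25 (11.7%, 8.08 to 16.8), against 1.77%. A wider peak has more chance of touching a gene, so this difference is partly set by how the peaks were chosen and was not tested. Width grew with the number of genes held, with medians of 1074 bp for 1 gene (160 peaks), 1498 bp for 2 genes (34 peaks) and 2016 bp for 3 or more (19 peaks). A peak that holds several genes must span the space between them, so this rise is partly given by construction. The median of peaks with 1 gene was above that of other peaks, although single ones were narrower.

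The widest peak, 3263 bp on chromosome 14, held n-TLaag8, n-TPagg4 and n-TTtgt3. It was followed by the peak with 5 genes, by 2897 bp over n-TTtgt1, n-TYgta10 and n-TPtgg5, also on chromosome 14, by 2839 bp over n-TWcca2 and n-TDgtc16 on chromosome 10, and by 2517 bp over n-TScga2. The last one also covers an end of Smarcc2, a chromatin remodelling gene. The narrowest were 234 bp at n-TKttt22, 252 bp at n-TIaat13, 265 bp at n-TGgcc14, 272 bp at n-TCgca18 and 279 bp at n-TGgcc12, each with 1 gene.

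The place of the gene within its peak varied in the 160 peaks with 1 gene. The median distance between the midpoint of the gene and that of the peak was 188 bp (157 to 218), or 0.211 of the peak's width (0.169 to 0.253), and 92 of 160 genes (57.5%, 49.8 to 64.9) lay within 25% of the width from the peak's midpoint. In base pairs, 41 of 160 (25.6%, 19.5 to 32.9) lay within 100 bp of it. Whether genes lean toward the middle of the peak was not tested. The overlap rule also admits genes that reach past the peak's edge, and no even placement under that rule was computed. The annotation used here has no strand, so whether genes sat upstream or downstream of the midpoint was not analysed here.

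Peak coverage fell off sharply outside the genes. Leaving out the Cys-GCA block, 84.2% of tRNA gene ends were under a peak, 63.6% of positions 300 bp outside, 49.7% at 500 bp, 27.8% at 1000 bp and 12.7% at 3000 bp. Ends of protein-coding genes had 35.3% at the end and 7.72% at 3000 bp, counting both ends of each gene, of which only 1 is the promoter. Ends of snRNA genes stood at 7.36% and at 5.84% for 3000 bp, and so had nearly the same coverage at the gene as far from it. In the 273 tRNA genes more than 2 kb from any protein-coding end the coverage was 81.5% at the gene and 13.6% at 3000 bp, close to that of all tRNA genes outside the block.

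**Figure D3:**
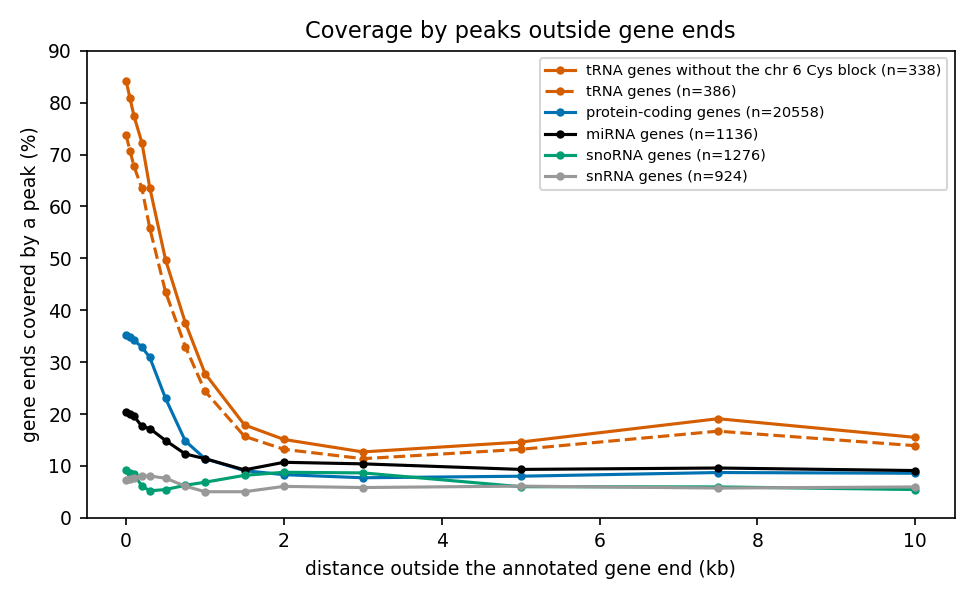
Share of annotated gene ends covered by a peak (%) against distance outside the gene (kb), for tRNA genes without and with the chromosome 6 Cys block and for protein-coding, miRNA, snoRNA and snRNA genes. The tRNA curve without the block starts at 84.2% and reaches 12.7% at 3 kb, while the snRNA curve stays near 5 to 8%.

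A minority of tRNA peaks were protein-coding gene ends at the same time. Of 213, 32 covered such an end (15%, 10.8 to 20.4), against 8.05% of other autosomal peaks, 53 lay within 2 kb (24.9%, 19.6 to 31.1), against 16.4%, and 126 within 10 kb (59.2%, 52.4 to 65.5), against 37.6%. The median distance was 7537 bp for tRNA peaks and 17676 bp for other peaks. Among the peaks over an end, the first in chromosome order held n-TEctc5 and its neighbours at Fcgr3, n-TSgct7 at Knl1, a kinetochore gene, n-TMcat11 at Ilf2, n-TEctc12 at Acp6 and n-TSaga9 at 2610301B20Rik, and they were 2241, 1622, 1364, 1982 and 1755 bp wide. At the other extreme, the peak of n-TDgtc10 (570 bp) lay 561421 bp from the nearest protein-coding end, that of n-TEttc7 (1770 bp) 256355 bp, that of n-THgtg10 (823 bp) 112731 bp, that of n-TNgtt9 84278 bp and that of n-TEttc8 70215 bp. The peak of n-TEttc7, far from any protein-coding end, was thus wider than the median of 1304 bp for other peaks over such an end.

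The median width of tRNA peaks was above that of other peaks in each distance class. Over a protein-coding end the medians were 1611 bp for 32 tRNA peaks (1449 to 1963) and 1304 bp for 12871 others. Within 2000 bp of an end they were 935 bp (501 to 1357) and 603 bp, an interval that reaches below the other peaks. Between 2 and 10 kb they were 1154 bp (980 to 1407) and 552 bp, and beyond that 1166 bp (933 to 1297) and 533 bp. With 1 tRNA gene only and over 2000 bp from an end, the median of 118 peaks was 942 bp (823 to 1132). Wider peaks have more chance of touching a tRNA gene in each class, so these differences are partly set by how the peaks were chosen and were not tested.

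**Figure D4:**
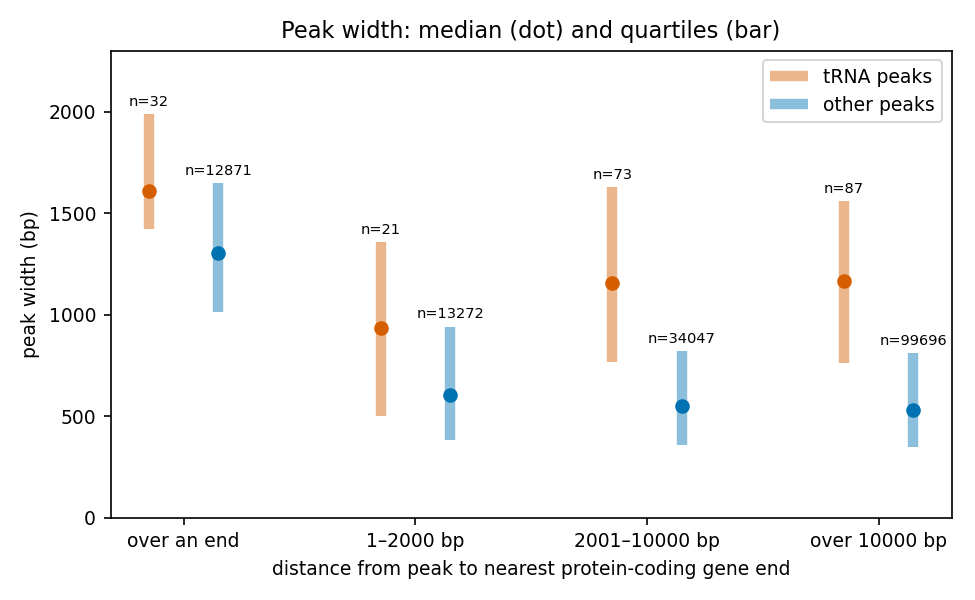
Peak width (bp) by distance to the nearest protein-coding gene end, with medians as dots and quartiles as bars, for tRNA peaks (orange) and other autosomal peaks (blue). Away from gene ends the tRNA medians were 1154 and 1166 bp, above the 552 and 533 bp of other peaks there. They were below the 1304 bp of other peaks over a protein-coding end.

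The tRNA genes near protein-coding ends all had a peak, and the lone genes far from them often lacked one. Within 2 kb of an end 65 of 65 genes had a peak (100%, 94.4 to 100). Beyond 2 kb it was 230 of 321 (71.7%, 66.5 to 76.3), and 230 of 273 (84.2%, 79.5 to 88.1) without the Cys-GCA block. More than 50 kb from any end, 9 of 23 genes outside the block had one (39.1%, 22.2 to 59.2). Clustered and lone genes stood apart at middle distances: between 2 and 10 kb 87 of 90 clustered genes (96.7%, 90.7 to 98.9) and 17 of 26 lone genes (65.4%, 46.2 to 80.6) had a peak, and between 10 and 50 kb 99 of 104 (95.2%, 89.2 to 97.9) and 18 of 30 (60%, 42.3 to 75.4). Within 2 kb both were complete, with 39 of 39 clustered and 26 of 26 lone genes. Beyond 50 kb 4 of 6 clustered genes (66.7%, 30 to 90.3) and 5 of 17 lone genes (29.4%, 13.3 to 53.1) had a peak, and the intervals overlapped. Here too, intervals of clustered genes treat genes that share a peak as independent. The share of other short genes in the same distance classes was not analysed here, so the trend cannot be called particular to tRNA genes.

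**Figure D5:**
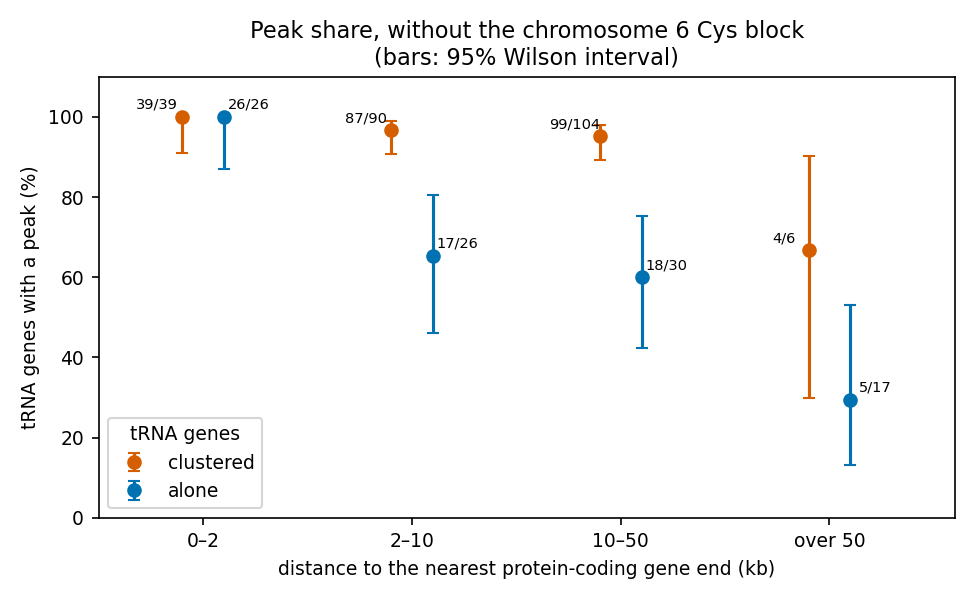
Share of tRNA genes with a peak (%, bars are 95% Wilson intervals) by distance to the nearest protein-coding end, for clustered (orange) and lone (blue) genes outside the chromosome 6 Cys block. Clustered genes stay above 95% out to 50 kb and stand at 66.7% beyond it, while lone genes stand at 60% between 10 and 50 kb and 29.4% beyond, where the intervals overlap.

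Outside the block, 43 tRNA genes had no peak, of which 33 stood alone. Their nearest peaks lay at a median of 2202 bp and a range of 112 to 82375 bp. Farthest was n-TEctc2 (Glu-CTC) on chromosome 12, 82375 bp from a peak and 459487 bp from the nearest protein-coding end, followed by n-TKctt9 (Lys-CTT) on chromosome 3 at 42053 bp and n-TTagt2 (Thr-AGT) on chromosome 14 at 30162 bp. Around these 3 genes 0, 2 and 1 peak midpoints lay within 50 kb. The surroundings of the 43 were poorer in peaks, with a median of 7 midpoints within 50 kb (4 to 12), against 20 (19 to 21) around the 295 with a peak. At most 5 midpoints lay there for 3 of the 295 genes with a peak (1.02%) and for 16 of the 43 without (37.2%). The counts include the gene's own peak and peaks over neighbouring tRNA genes, so these differences are partly set by how the groups were formed. Of tRNA genes inside the span of a protein-coding gene, 21 of 33 had a peak (63.6%, 46.6 to 77.8), against 274 of 305 (89.8%, 85.9 to 92.7) outside such spans and outside the block. Those without one included n-TLcag1 in Naaladl2, n-TLcag2 in Sgcz and n-TIaat1 in Robo2. Sparse surroundings did not always go with an absent peak: n-TKctt7, inside Cdh19, and n-TEttc7 had peaks with only 3 and 4 midpoints within 50 kb.

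The genes that make and use tRNAs had open ends almost without exception. A peak within 500 bp of an annotated end was present in all 13 RNA polymerase III subunit genes, among them Polr3a, Polr3b, Polr3c and Polr3d, and in all 6 TFIIIC genes. It was present in all 12 genes of TFIIIB, SNAPc and related regulators, including Brf1, Bdp1 and Maf1, the polymerase's repressor. Genes of tRNA end processing had it in 11 of 12 cases, splicing and export in 8 of 8, modification in 26 of 26 and the cytosolic aminoacyl-tRNA synthetases in 19 of 20. That makes 95 of 97 (97.9%), against 71.4% of all protein-coding genes. The exceptions were Rpp40, of ribonuclease P, and Eprs, the glutamyl-prolyl-tRNA synthetase, whose ends lay 4961 and 1150 bp from a peak. Such genes are active in most cells. Only 1 machinery gene, Polr3e, had a tRNA gene within 5 kb. Genes of other RNA polymerase III transcripts had a peak in 10 of 11 cases, against 22% of 3685 noncoding RNA genes of at most 400 bp other than tRNA genes in the same window of 500 bp. A further gene of the list, Snar, was not matched in the gene table. Among those with a peak were Rmrp (1681 bp), Rpph1 (959 bp), Rn7sk (1735 bp) and Rn7s1 (1305 bp), with the peak's width in brackets. The exception was Rnu6, 5367 bp from a peak.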

How the data were processed

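The 18 libraries were grouped by the time in their titles, but the deposited file gives only positions (chromosome, start, end) of peaks that the authors merged over all libraries, with no score or signal. MACS2 2.2.7.1, a peak caller, Bowtie2 2.4.2 and Trimmomatic 0.36 are listed in the submitters' processing notes, beside the builds GRCm38 and mm10, without saying which did what. The merging rule, the peak threshold and the treatment of reads that map to several tRNA copies are not given in the sources used here. The number of unused columns with per-sample values was 0. With no values per library, no test between times was possible.

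Gene positions came from a RefSeq table of GRCm38.p6, without strand. Of its 430 tRNA genes, 386 were autosomal, 17 lay on X, 22 were mitochondrial and 5 carried scaffold coordinates, recognised by a drop in start within a chromosome, and were left out. Anticodons were read from symbols, including n-Tcgca44, whose letter case differs. Shares carry Wilson intervals and medians order-statistic intervals. No test over genes was made. Sequences came from the RefSeq promoter table, in which no tRNA gene has its own entry. Members and lists were chosen with earlier results of these data known. Named genes follow a rule: every gene of an anticodon name without a peak, single-gene names, ends of the 5 largest clusters, the 5 widest and narrowest peaks, those with most genes, those nearest to and farthest from protein-coding ends, genes without a peak farthest from and nearest to one, and list genes without a peak with up to 4 others. Genes named beyond it were chosen after their values were seen. Overlap code was tested on simulated peaks. Tables were joined with pandas 2.3.3 and numpy 2.4.6, intervals came from scipy 1.17.1 and plots from matplotlib 3.10.9, under Python 3.11.15.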

Additional observations from a re-analysis of the deposited data

How the results depend on the processing

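Of 54 alternatives over 8 results, 43 kept the value within the 95% interval of the result, or a count within 1.5 times. Some of these could not change. The Cys-GCA block holds no tRNA peak, so leaving it out keeps the number, widths and positions of tRNA peaks as they were. The share of tRNA genes with a peak, 76.4%, became 69.4% with only peaks wider than the median, 71.2% with the whole gene required inside a peak and 87.3% without the chromosome 6 Cys-GCA block, a setting chosen after seeing the data. Under the same settings the share of clustered genes, 80.1%, became 72.4%, 74.5% and 95.8%. Genes far from protein-coding ends, 71.7%, stood at 66% with wide peaks, 84.2% without the block and 61.5% when far meant over 10 kb. The share of tRNA peaks near a protein-coding end, 24.9% within 2 kb, was 16.4% within 500 bp and 59.2% within 10 kb, as those limits must give. Each setting changes by construction which peaks or genes are counted. Counting each cluster once, also chosen after seeing the data, gave 75.2%. No paired analysis was possible because the file holds no value per sample. With no depth, a missing peak cannot be told from too few reads, and in repeated tRNA copies not from reads that could not be placed.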

Other observations

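The X chromosome, which the autosomal set leaves out, held 17 tRNA genes, of which 4 had a peak (23.5%, 9.56 to 47.3). The 4 were n-TQttg1, n-TRcct4, n-TKctt19 and n-TVtac3. All 12 Ala genes of X, named Ala-CGC or Ala-TGC and lying between 136357602 and 136590436, had none. Their distances to the nearest peak ran from 102 bp at n-TAtgc1, just outside the window, to 63913 bp at n-TAcgc6. On the autosomes 7 of the 8 genes with these 2 names had a peak. Like the Cys-GCA genes of chromosome 6, they are many genes of few names within 1 stretch.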
